A study of Mus musculus with 9 samples.

Results

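The coactivators YAP and TAZ, TEAD transcription factors and target genes of these proteins were compared in 3 mouse cell lines that resemble or come from extra-embryonic endoderm. The 10 genes were taken by name: Yap1, Wwtr1 (which encodes TAZ), Tead1, Tead2, Tead4, Ccn1 (formerly Cyr61), Ccn2 (formerly Ctgf), Ankrd1, Amotl2 and Axl. All probes annotated to them were read, which gave 22 of the 45281 probes on the array and 10 of 19057 named genes. END2 cells were derived from the P19 embryonal carcinoma, PYS2 cells from a tumor of 129 strain mice and XEN cells from blastocysts of the ICR strain. No line was treated, and each was measured on 3 Illumina mouse bead arrays. Each group is thus 1 cell line. PYS2 and XEN cells differ in strain, so that strain and line cannot be told apart between them, and no strain is named here for END2 cells. The medium of END2 cells was DMEM/F12, that of the others high glucose DMEM. Where END2 cells are compared, medium, any difference in strain and line thus cannot be told apart. RNA was isolated 3 times from each line, and it is not stated whether from separate cultures, so the p-values rest on a spread between arrays that may be technical.

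YAP and TAZ are the output of the Hippo pathway, a kinase cascade that reads cell contact, cell shape and the stiffness of the surroundings. When the kinases LATS1 and LATS2 are active they phosphorylate YAP and TAZ, which are then held in the cytoplasm or degraded. When the kinases are inactive, YAP and TAZ enter the nucleus and bind TEAD factors, which supply the contact with DNA. In the early mouse embryo this switch separates the trophectoderm, where Tead4 is required, from the inner cell mass. Because the pathway acts largely through phosphorylation and localization of protein, mRNA levels of its members measure its parts and its target genes but not its activity.

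TEAD factors recognize the letters GGAATG, or CATTCC when read on the other strand. RefSeq promoter sequences were found for 7 of the 10 genes, and the 250 bases before the gene start held the letters on either strand in 6 of them, whereas 12.6% of all 32851 promoter windows of this length held them. The exception was Tead2. No such sequence was found for Tead1, Tead4 and Ccn2, which were thus not searched. Wwtr1 had 2 overlapping windows, both with the same match. A match describes the letters and is not a measured site of binding. The windows of the 4 target genes with a match, whose levels are described further on, are shown 5′ to 3′ on the strand of the gene (RefSeq, GRCm38.p6) with the matches in capitals.
Ankrd1, chr19:36119845-36120094, minus strand: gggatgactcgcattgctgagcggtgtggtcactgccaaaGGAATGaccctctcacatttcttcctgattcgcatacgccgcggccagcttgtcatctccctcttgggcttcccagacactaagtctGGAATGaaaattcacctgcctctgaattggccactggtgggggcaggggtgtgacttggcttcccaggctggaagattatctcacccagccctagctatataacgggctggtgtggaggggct
Ccn1, chr3:145649986-145650235, minus strand: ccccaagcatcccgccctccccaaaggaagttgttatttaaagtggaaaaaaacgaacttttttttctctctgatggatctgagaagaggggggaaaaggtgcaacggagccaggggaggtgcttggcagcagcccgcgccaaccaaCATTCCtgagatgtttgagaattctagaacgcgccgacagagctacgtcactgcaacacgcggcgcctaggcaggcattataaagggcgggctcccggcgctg
Amotl2, chr9:102717554-102717803, plus strand: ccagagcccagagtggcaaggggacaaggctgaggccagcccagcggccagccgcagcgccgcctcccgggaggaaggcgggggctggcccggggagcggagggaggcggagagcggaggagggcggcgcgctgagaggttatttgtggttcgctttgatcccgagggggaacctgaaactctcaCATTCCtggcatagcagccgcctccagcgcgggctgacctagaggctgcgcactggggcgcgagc
Axl, chr7:25788734-25788983, minus strand: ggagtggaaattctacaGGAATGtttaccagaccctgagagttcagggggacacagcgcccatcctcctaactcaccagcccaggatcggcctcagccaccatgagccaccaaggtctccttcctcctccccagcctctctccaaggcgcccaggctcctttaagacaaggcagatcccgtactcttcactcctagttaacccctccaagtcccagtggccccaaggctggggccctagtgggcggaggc
The first base of the match lay 210 and 123 bases before the start of Ankrd1, 103 bases before that of Ccn1, 65 bases before that of Amotl2 and 233 bases before that of Axl. Ankrd1 was thus the only gene of the 7 with a pair of matches, and 0.992% of all windows held 2 or more. The coactivator genes themselves also carried the letters, which are shown with their closest surroundings.
Yap1, chr9:8004720.0-8004749.0, minus strand: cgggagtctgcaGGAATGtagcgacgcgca
Wwtr1, chr3:57576029.0-57576058.0, minus strand: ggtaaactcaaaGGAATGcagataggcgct

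An array detected a probe if the detection p-value fell under 0.01, and a line had a probe present if at least 2 of its 3 arrays detected it. Levels are log2 values after background correction and quantile normalization with limma's neqc method, and the lines were compared with limma at a Benjamini-Hochberg adjusted p under 0.05 over 16299 probes present in at least 1 line. The 22 probes were read on 22 to 75 beads per array. END2 cells had 18 of them present, PYS2 cells 15 and XEN cells 17, and 18 were tested. One probe each of Tead1 and Axl and 2 probes of Tead4 were detected on no array and are not described further. Where a gene has several probes they are numbered from the one with the highest mean level, and levels of different probes are not compared with each other.

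END2 arrays detected 13560 to 14940 probes each, PYS2 arrays 13051 to 13548 and XEN arrays 13266 to 13945. The median signal was 43.5 intensity units on XEN replicate 2 and 21.3 to 30.9 on the other arrays, so that unnormalized signals of XEN replicate 2 run high. END2 replicate 3 lay 72.1 and 78.5 from the other END2 arrays in Euclidean distance over log2 levels, which were 35 apart from each other. Of 8 markers of extra-embryonic endoderm END2 cells had 5 present, PYS2 cells 8 and XEN cells 8. Sox7, Sox17 and Hnf4a were detected on no END2 array. For the 5, END2 minus PYS2 was -2.72 for Gata4, -4.80 for Pdgfra, -2.45 for Foxa2, -2.02 for Dab2 and 0.73 for Gata6 (log2). By qRT-PCR the paper found no Gata4, Pdgfra or Foxa2 in END2 cells, and Foxa2 in PYS2 cells alone, although all XEN arrays detected it. It proposes that the Gata4 probe may read unspecific transcripts or splice variants. Presence on the arrays thus does not establish expression of Gata4, Pdgfra and Foxa2 in END2 cells, or of Foxa2 in XEN cells. Of 6 pluripotency markers 1 was present in END2 (Nanog), 1 in PYS2 (Dppa5a) and 2 in XEN cells (Utf1 and Dppa5a), and Pou5f1 was detected on no array. Dppa5a signals were 20162 to 24981.6 intensity units in PYS2 cells and only 38.7 to 125.3 in XEN cells.

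Against PYS2 cells, END2 cells had higher levels of Wwtr1, Tead1, Ccn1, Ankrd1, Amotl2 and Axl and a lower level of Yap1, by the brightest probe of each gene. Tead2, Tead4 and Ccn2 did not pass the test. Of the 18 tested probes 12 were higher and 1 was lower in END2 cells, with a median difference of 1.30 on the log2 scale, while 53.0% of all tested probes were called (25.8% higher and 27.1% lower) and the median over all of them was -0.02. Of all genes taken by their brightest probe 55.2% were called. Wwtr1 probes 2 and 3 were not present in PYS2 cells and passed the filter through END2 and XEN cells. The Axl probe was present in END2 cells alone and passed the filter through them. Without END2 replicate 3, 13 probes were higher and 1 was lower.

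Against XEN cells, END2 cells were higher in Ankrd1, Amotl2 and Axl and lower in Yap1, Tead2 and Ccn2. Wwtr1, Tead1, Tead4 and Ccn1 did not pass by their brightest probes. Over the 18 probes 5 were higher and 5 were lower in END2 cells, with a median difference of 0.18, while 51.8% of all tested probes were called (25.7% higher and 26.1% lower), as were 54.2% of all genes, and the median over all probes was -0.02. The Axl probe is among the 5 that were higher and passed the filter through END2 cells alone. Without END2 replicate 3, 5 were higher and 6 were lower.

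PYS2 cells were lower than XEN cells in Wwtr1, Tead1, Tead2, Ccn1, Ccn2, Ankrd1, Amotl2 and Axl, while Yap1 and Tead4 did not pass by their brightest probes. No probe was higher in PYS2 cells and 14 of 18 were lower, with a median difference of -1.25, while 36.9% of all tested probes were called (18.8% higher and 18.1% lower), as were 39.7% of all genes, and the median over all probes was 0.00. The Axl probe, 1 of the 14, was present in neither of these lines. The 3 comparisons share arrays and are not independent of each other. In all of them the genes were chosen with earlier results of these data known, and some have several probes. The counts and medians thus do not test an excess over all probes. None of the called differences of the 18 probes changed its sign under any alternative that was run.

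**Figure D1:**
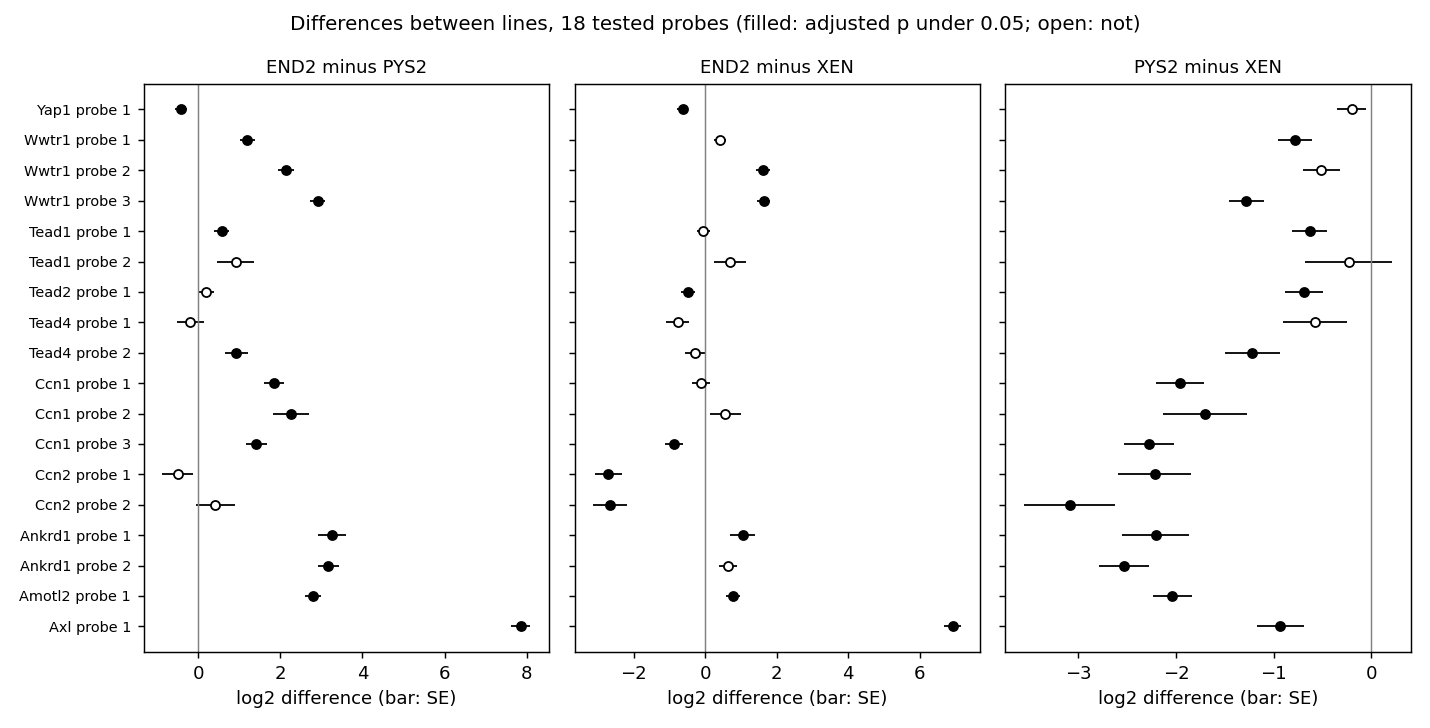
Log2 difference (horizontal axis) of each of the 18 tested probes (rows) in END2 minus PYS2, END2 minus XEN and PYS2 minus XEN, with bars of 1 SE, filled where the adjusted p was under 0.05. In the panel of PYS2 minus XEN all points lie left of 0, and 14 of the 18 are filled.

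Yap1, which encodes the coactivator YAP, was detected on all 9 arrays by its single probe. Its signal was 595.8, 670.7 and 480.5 intensity units on the END2 arrays, 536.1, 769.2 and 713.4 on the PYS2 arrays and 617.9, 1239.9 and 645.1 on the XEN arrays. Normalized log2 levels averaged 9.06 ± 0.0649 for END2, 9.49 ± 0.122 for PYS2 and 9.69 ± 0.0472 for XEN (SD, n = 3). The arrays of the 3 lines did not overlap in normalized level, with END2 lowest, although the unnormalized signals did. END2 cells thus had 1.54-fold less Yap1 than XEN cells (difference -0.63, SE 0.147, adjusted p = 0.00384, limma). They had 1.34-fold less than PYS2 cells (adjusted p = 0.0302), and this small difference no longer passed without END2 replicate 1 (adjusted p = 0.0993), END2 replicate 2 (adjusted p = 0.0544), PYS2 replicate 2 (adjusted p = 0.053) or PYS2 replicate 3 (adjusted p = 0.086). The difference between PYS2 and XEN was -0.20 (SE 0.147, adjusted p = 0.319). Both calls were lost without normalization between arrays (adjusted p = 0.715 against PYS2 and 0.374 against XEN).

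Wwtr1, the gene of the YAP paralog TAZ, ran in another order, with END2 cells highest and PYS2 cells lowest by each of its 3 probes. Probe 1 gave signals of 1714.9, 2010.8 and 1494.3 in END2, 739.5, 680.7 and 633.4 in PYS2 and 929.4, 2073 and 973.2 in XEN cells. All PYS2 arrays lay below every END2 array, and XEN replicate 2 alone reached the END2 range before normalization. Normalized log2 levels averaged 10.72 ± 0.103 for END2, 9.52 ± 0.302 for PYS2 and 10.31 ± 0.0658 for XEN (SD, n = 3). END2 cells had 2.29-fold more Wwtr1 than PYS2 cells (adjusted p = 0.000151, limma), and PYS2 cells had 1.72-fold less than XEN cells (adjusted p = 0.00492), a call lost without normalization between arrays (adjusted p = 0.129). END2 minus XEN was 0.41 (SE 0.178) and missed the threshold at an adjusted p = 0.0716, although the arrays did not overlap, and it passed under 5 alternatives, among them the authors' normalized values (adjusted p = 0.0281).

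The dimmer Wwtr1 probes gave larger differences between END2 cells and both other lines. Probe 3 had signals of 260.3, 222.1 and 200.9 in END2, of 30.2, 23.9 and 28.5 in PYS2 and of 48.6, 114.2 and 53.5 in XEN cells. No PYS2 array detected it, so that its level there is only a bound, and every END2 and XEN array did. END2 cells exceeded PYS2 cells at least 4.23-fold (adjusted p = 9.27e-08, limma). PYS2 cells were also below XEN cells, which exceeded them at least 1.37-fold (adjusted p = 0.000218). For such a bound, an undetected level was replaced by the lowest level that its array detected for any probe wherever this was higher. The adjusted p beside a bound is that of the fitted difference. Against XEN cells END2 was 3.09-fold higher by probe 3 (adjusted p = 1.61e-05) and 3.07-fold higher by probe 2 (adjusted p = 2.55e-05), whereas probe 1 did not pass. Probe 2 was detected on 1 PYS2 array, and its difference of -0.51 between PYS2 and XEN (adjusted p = 0.0552) passed without PYS2 replicate 1 (adjusted p = 0.0115). The probes of Wwtr1 thus agree on the order of the lines but not on the size of the difference between END2 and XEN cells.

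**Figure D2:**
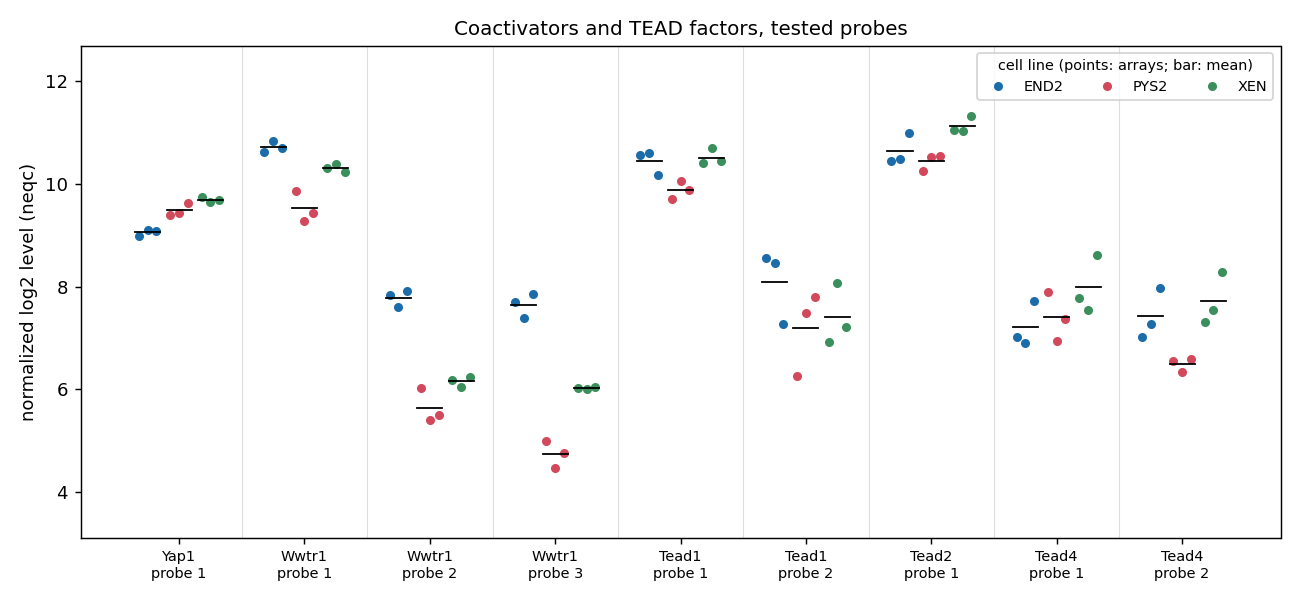
Normalized log2 level (vertical axis) of the tested probes of the coactivator genes Yap1 and Wwtr1 and of Tead1, Tead2 and Tead4, with a point for each array and a bar for the mean of 3 arrays, in END2, PYS2 and XEN cells from left to right. Yap1 is lowest in END2 cells (mean 9.06) while the Wwtr1 probes are highest there (10.72 for probe 1).

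Differences of the TEAD probes between the lines were at most 2.33-fold. Tead1 probe 1 was detected on all arrays, with signals of 1646.7, 1737.9 and 1035.6 in END2, 663.9, 1175.7 and 844.8 in PYS2 and 992, 2577.3 and 1127.7 in XEN cells. END2 replicate 3 was the lowest of its line and fell within the range of PYS2. Normalized log2 levels averaged 10.45 for END2, 9.88 for PYS2 and 10.51 for XEN, and PYS2 did not overlap with either other line. END2 cells had 1.49-fold more Tead1 than PYS2 cells (adjusted p = 0.0192, limma), which had 1.55-fold less than XEN cells (adjusted p = 0.0167). Neither call held in every set of arrays. The first did not pass without END2 replicate 1 or END2 replicate 2 (adjusted p = 0.0704 in both cases) or without PYS2 replicate 1 (adjusted p = 0.068), and the second did not pass without PYS2 replicate 1 (adjusted p = 0.059) or XEN replicate 2 (adjusted p = 0.0673). Between END2 and XEN the difference was -0.06 (SE 0.18, adjusted p = 0.797). Tead1 probe 2 passed in no comparison, with signals of 453.8, 439.1 and 134.8 in END2, 60.9, 206.3 and 206.8 in PYS2 and 85.6, 434.1 and 112.8 in XEN cells. Its replicates spread widely in every line, and without END2 replicate 3 END2 cells were higher than PYS2 cells by 1.32 (adjusted p = 0.021) and than XEN cells by 1.10 (adjusted p = 0.0473).

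Tead2, the TEAD gene known for its expression in early mouse embryos, had signals of 1530.8, 1610.4 and 1837.5 in END2, 986.6, 1654.3 and 1343.7 in PYS2 and 1621, 3239.7 and 2151.3 in XEN cells. XEN cells were highest after normalization, at a log2 level of 11.13, against 10.64 in END2 and 10.44 in PYS2 cells. PYS2 cells had 1.61-fold less than XEN cells (adjusted p = 0.0147, limma), but not without PYS2 replicate 1 (adjusted p = 0.0534) or XEN replicate 3 (adjusted p = 0.0621). END2 minus XEN was -0.49, a call right at the threshold (SE 0.191, adjusted p = 0.05). Leaving out END2 replicate 1 (adjusted p = 0.174), END2 replicate 2 (adjusted p = 0.148) or any one of the XEN replicates (adjusted p = 0.0761, 0.0688 and 0.164) ended that call. Between END2 and PYS2 the difference was 0.20 (SE 0.191, adjusted p = 0.403).

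Tead4, which the trophectoderm requires, was detected on all arrays by 2 probes, and these disagreed. Probe 2 gave signals of 166.6, 204.9 and 221 in END2, 72.1, 97 and 92.8 in PYS2 and 112, 308.7 and 234.4 in XEN cells, with PYS2 arrays below all others. By this probe END2 cells had 1.91-fold more Tead4 than PYS2 cells (adjusted p = 0.0162, limma), which did not pass without PYS2 replicate 2 (adjusted p = 0.0573). PYS2 cells had 2.33-fold less than XEN cells (adjusted p = 0.00553). Probe 1 gave signals of 166.1, 162.4 and 181.6 in END2, 183.9, 144.5 and 154.2 in PYS2 and 155.8, 308.4 and 297.9 in XEN cells. Its PYS2 arrays overlapped with both other lines and no comparison passed, with a difference of -0.19 between END2 and PYS2 (SE 0.327, adjusted p = 0.646). END2 minus XEN was -0.77 (adjusted p = 0.0667) and passed without END2 replicate 3 (adjusted p = 0.0199) or XEN replicate 2 (adjusted p = 0.0424) and with array weights (adjusted p = 0.00196). Both probes are annotated to the same transcript. Tead3, the remaining TEAD gene of the mouse, was detected on no array by its only probe.

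Ccn1 and Ccn2 encode secreted matricellular proteins and are the most widely used readouts of YAP and TAZ. Ccn1 probe 1 was detected on all arrays, with signals of 827.4, 1081.7 and 1233.4 in END2, 163.7, 314.4 and 309.4 in PYS2 and 725.9, 1601.5 and 916.1 in XEN cells. Every PYS2 array lay below every array of the other lines, and END2 and XEN overlapped. END2 cells had 3.58-fold more Ccn1 than PYS2 cells (adjusted p = 6.23e-05, limma), which had 3.88-fold less than XEN cells (adjusted p = 8.32e-05). The difference between END2 and XEN was -0.12 (SE 0.245, adjusted p = 0.722). Probes 2 and 3 gave the same order against PYS2, with END2 4.8-fold higher (adjusted p = 0.000914) and 2.66-fold higher (adjusted p = 0.000722). Between END2 and XEN the probes went in different directions. Probe 2 differed by 0.56 (SE 0.429, adjusted p = 0.3), and probe 3 was 1.82-fold lower in END2 cells (adjusted p = 0.0146), a call that was lost without END2 replicate 1 (difference -0.56, adjusted p = 0.0596) or XEN replicate 1 (adjusted p = 0.0506).

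Ccn2 was bright in every line and followed another order than Ccn1. Probe 1 gave signals of 2991.4, 3348.6 and 5335.9 in END2, 8562.5, 3245.6 and 4382.2 in PYS2 and 23035.3, 25543.8 and 21854.4 in XEN cells. The XEN arrays were far above all others, in the upper part of the scale, where the highest signal of any probe was 28592.8 to 32185.6. END2 and PYS2 overlapped, and PYS2 replicate 1 was the highest array outside XEN. By probe 1 END2 cells had 6.58-fold less Ccn2 than XEN cells (adjusted p = 9.27e-05, limma), and PYS2 cells had 4.66-fold less (adjusted p = 0.000777). Probe 2 gave 6.38-fold (adjusted p = 0.000535) and 8.52-fold (adjusted p = 0.000341) in the same comparisons, with signals of 1554.6, 1957.7 and 2737.5 in END2, 3064.6, 889.2 and 977.5 in PYS2 and 12580.2, 14346.4 and 12646.3 in XEN cells. Between END2 and PYS2 the probes differed in sign, at -0.50 (SE 0.378, adjusted p = 0.29) for probe 1 and 0.42 (SE 0.469, adjusted p = 0.48) for probe 2. For probe 2 this difference passed without PYS2 replicate 1, the array that stood high, at 1.07 (adjusted p = 0.0162).

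Ankrd1, which encodes a nuclear and sarcomeric ankyrin repeat protein, was the gene with 2 matches in its promoter window. Probe 1 gave signals of 1792.1, 1713.5 and 3161.5 in END2, 249.3, 159.6 and 217.5 in PYS2 and 708.8, 1395.9 and 932.2 in XEN cells. The lines did not overlap, with END2 highest and PYS2 lowest, and END2 replicate 3 was the highest array. END2 cells had 9.59-fold more Ankrd1 than PYS2 cells by probe 1 (adjusted p = 9.42e-06, limma) and 8.97-fold more by probe 2 (adjusted p = 8.71e-07). In PYS2 it was 4.63-fold lower than in XEN cells by probe 1 (adjusted p = 0.000434) and 5.79-fold lower by probe 2 (adjusted p = 1.51e-05). The difference between END2 and XEN was smaller and less stable. Probe 1 was 2.07-fold higher in END2 (difference 1.05, adjusted p = 0.0241), but not without END2 replicate 3 (difference 0.67, adjusted p = 0.0754), XEN replicate 1 (adjusted p = 0.0622) or XEN replicate 2 (adjusted p = 0.0762), and probe 2 did not pass (difference 0.63, SE 0.256, adjusted p = 0.0573) but passed under 6 alternatives, among them without END2 replicate 1 (adjusted p = 0.0447) and with the authors' normalized values (adjusted p = 0.025).

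Amotl2 encodes an angiomotin that binds YAP and holds it at cell junctions, and is itself a target gene. Its single probe gave signals of 340.2, 379.9 and 355.3 in END2, 34, 61.4 and 55.5 in PYS2 and 142.6, 293.5 and 146.8 in XEN cells. The lines did not overlap and took the order of Ankrd1, and 2 of 3 PYS2 arrays detected the probe. END2 cells had 6.98-fold more Amotl2 than PYS2 cells (adjusted p = 2.86e-07, limma) and 1.7-fold more than XEN cells (adjusted p = 0.00707). PYS2 cells had 4.1-fold less than XEN cells (adjusted p = 1.23e-05). All 3 calls held under every alternative that was run, with the difference between END2 and XEN ranging from 0.48 to 0.99.

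Axl, a receptor tyrosine kinase for the ligand GAS6, had the largest difference among the 18 probes. Probe 1 gave signals of 5858.1, 4768.3 and 8129.8 in END2, 24.2, 40.2 and 21.6 in PYS2 and 36.4, 105.6 and 41.8 in XEN cells. Every END2 array detected it brightly, no PYS2 array did, and among the XEN arrays replicate 2 alone did, with detection scores of 0.98825 and 0.98932 on the others just short of the limit. END2 cells exceeded PYS2 cells at least 128-fold (adjusted p = 3.41e-10, limma). The fitted fold against XEN cells was 121 (adjusted p = 9.2e-10), which rests on an XEN level that only 1 of 3 arrays detected. PYS2 minus XEN was -0.93 (adjusted p = 0.0101), although neither of these lines had the probe present. This call was lost with the authors' normalized values (adjusted p = 0.423), without normalization between arrays (adjusted p = 0.142) and with an offset of 50 (adjusted p = 0.0955). Axl is also known from fibroblasts and other mesenchymal cells. Of 8 mesenchymal and fibroblast markers END2 cells had 6 present, led by Dcn at 4174.2 to 11048.4 and Col1a1 at 1625.6 to 1893.8 intensity units, while PYS2 and XEN cells each had 1 present, Twist1. Their signals summed to 6859.8 to 14429.4 in END2, 239 to 326 in PYS2 and 229 to 409 in XEN cells, with Postn and Pdgfrb detected on no array. Their part in the higher levels of Axl and the other target genes in END2 cells was not tested, and a change in the share of cells that express a gene and a change in its RNA per cell cannot be told apart.

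**Figure D3:**
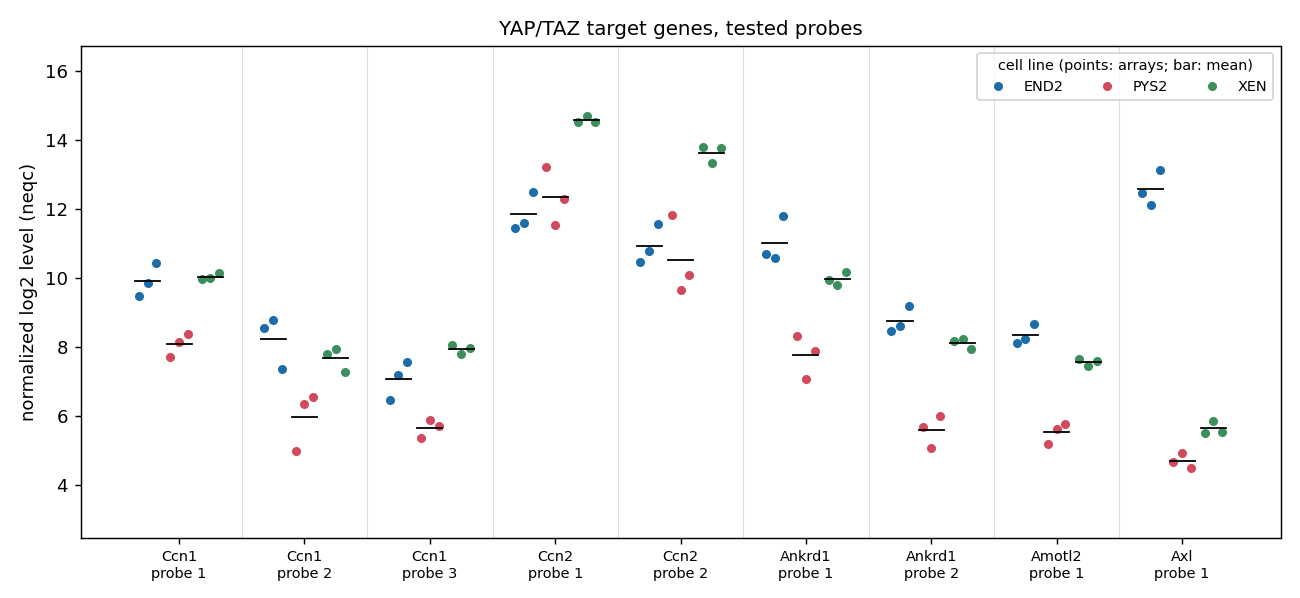
Normalized log2 level (vertical axis) of the tested probes of the target genes, with a point for each array and a bar for the mean of 3 arrays, in END2, PYS2 and XEN cells from left to right. PYS2 is lowest for Ccn1, Ankrd1, Amotl2 and Axl, XEN stands apart for Ccn2 (mean 14.56 for probe 1) and END2 for Axl (12.57).

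The other genes of the pathway were read from lists of textbook members, by the brightest probe of each gene. Vestigial-like proteins bind TEAD factors in place of YAP and TAZ. Vgll3 had signals of 842.2, 884.5 and 1045.1 in END2, 17.2, 25.9 and 15.4 in PYS2 and 47.4, 157.8 and 102.6 in XEN cells. All END2 and XEN arrays and no PYS2 array detected it. END2 cells exceeded PYS2 cells at least 18.1-fold (adjusted p = 1.31e-08, limma) and XEN cells by a log2 difference of 3.22 (adjusted p = 1.22e-06). PYS2 cells were below XEN cells, which exceeded them at least 1.94-fold (adjusted p = 9.9e-05). Vgll4, which competes with YAP for TEAD factors, was detected on all END2 arrays, 1 PYS2 array and no XEN array. Its END2 level was 1.01 above that of PYS2 on the log2 scale (adjusted p = 0.00318) and at least 1.63-fold that of XEN (adjusted p = 0.000545). Of the 5 genes in this list only these 2 were tested, as Tead3, Vgll1 and Vgll2 were present in no line. Vgll4 passed the filter through END2 cells alone.

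Of 25 genes of the Hippo cascade and its binding partners, 24 had a named probe and 16 were tested. Against PYS2 cells 5 were higher in END2, 2 were lower and 9 did not pass, with a median difference of 0.23, while 26.4% of all genes tested by their brightest probe were higher and 28.9% lower. Against XEN cells END2 was higher for 6 and lower for 3, with a median of 0.37, and in PYS2 against XEN 4 were higher and 2 were lower, with a median of 0.03. The corresponding shares of all genes were 27.4% higher and 26.8% lower in END2 against XEN, and 21.2% higher and 18.5% lower in PYS2 against XEN. Stk4, the kinase MST1, and Sav1, its scaffold, were detected on every array, and Sav1 differed by 0.02 between END2 and PYS2 and by 0.05 between END2 and XEN (adjusted p = 0.92 and 0.813). Stk4 was higher in PYS2 than in XEN by 0.51 (adjusted p = 0.0423, limma), a call that 11 of 18 alternatives kept. The kinase genes Lats1 and Lats2 and the upstream regulator Nf2 were not tested, since no line had them present. Absence on the arrays does not establish that a gene is not expressed. In the paper Grb2 was present on the arrays in XEN cells only, but qRT-PCR found it at similar levels in all lines. Stk4, Sav1, Lats1, Lats2 and Nf2 were picked for mention with their values in view.

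Wwc1, which encodes the upstream activator KIBRA, showed the largest difference in that list. Its signals were 511.9, 446.2 and 329.2 in END2, 29.8, 56.2 and 52.1 in PYS2 and 19.9, 36.1 and 20.4 in XEN cells, and the END2 arrays lay far above all others. The difference was 3.21 against PYS2 (SE 0.194, adjusted p = 6.73e-08, limma), and END2 was at least 8.36-fold higher than XEN, where no array detected it (adjusted p = 1.05e-08). Wwc1 passed the filter through END2 cells alone, as only 1 PYS2 array detected it, so neither difference counts as independent of that filter. Its paralog Wwc2 was higher in END2 than in XEN cells by 1.21 (adjusted p = 0.000128). Map4k4, a kinase that acts on LATS beside the MST kinases, was higher in END2 than in PYS2 by 1.52 (adjusted p = 7.53e-05) and than in XEN by 0.90 (adjusted p = 0.0034). Its difference of -0.62 between PYS2 and XEN (adjusted p = 0.0352) did not pass without PYS2 replicate 2 (adjusted p = 0.139), XEN replicate 1 (adjusted p = 0.131) or XEN replicate 3 (adjusted p = 0.0946). Mob1b, a cofactor of LATS, was higher in END2 than in PYS2 by 1.22 (adjusted p = 0.00685).

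Genes of the cascade also ran the other way. Taok3, a kinase upstream of MST, was lower in END2 than in PYS2 by -2.24 (adjusted p = 5.95e-07, limma) and than in XEN by -0.87 (adjusted p = 0.00133), and higher in PYS2 than in XEN by 1.37 (adjusted p = 8.92e-05). Only 1 of 3 END2 arrays detected Taok3, so both differences from END2 cells rest on a level near the detection limit. The difference from PYS2 ranged from -2.31 to -0.83 under the alternatives. Ptpn14, a phosphatase that binds YAP, was lower in END2 than in PYS2 by -0.77 (adjusted p = 0.00351) and than in XEN by -1.07 (adjusted p = 0.0004). Without normalization between arrays both Ptpn14 calls (adjusted p = 0.309 and 0.0838) and that of Taok3 in END2 against XEN (adjusted p = 0.223) were lost. Limd1 and Wtip encode LIM proteins of the family that binds LATS. Limd1 was higher in PYS2 than in XEN by 0.92 (adjusted p = 0.00379) and Wtip was lower by -0.83 (adjusted p = 0.00527), and both were lost without normalization between arrays (adjusted p = 0.0847 and 0.0676). For Wtip, the difference of -0.57 between END2 and XEN (adjusted p = 0.0266) was lost without END2 replicate 1 (adjusted p = 0.0695), END2 replicate 3 (adjusted p = 0.0566), XEN replicate 1 (adjusted p = 0.0767) or XEN replicate 3 (adjusted p = 0.116).

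Of 18 further target genes of YAP and TAZ, 17 had a named probe and 14 were tested. Against PYS2 cells 7 were higher in END2, 2 were lower and 5 did not pass, with a median difference of 0.52. Against XEN cells END2 was higher for 8 and lower for 3, with a median of 1.06. In PYS2 against XEN 3 were higher and 5 were lower, with a median of -0.08. The shares over all genes are those given for the Hippo cascade. These counts and medians include genes that passed the filter through 1 line alone, Igfbp3 and Rbms3 through END2 cells and Nt5e through XEN cells. Passing in this way favors a higher level in that line, so these genes do not count as independent differences from it. In the Hippo list Wwc1 and Ajuba also passed the filter through END2 cells alone, and the same limit holds for Wwc1. Ajuba passed the test in no comparison.

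Among these targets Nuak2, a kinase of the AMPK family, took the order of Ankrd1 and Amotl2. Its signals were 650.7, 769.5 and 768.5 in END2, 22.9, 37.1 and 40.1 in PYS2 and 116.5, 285.2 and 299.9 in XEN cells. No PYS2 array detected it. END2 cells exceeded PYS2 cells at least 14.1-fold (adjusted p = 2.83e-07, limma), and PYS2 cells were below XEN cells, which exceeded them at least 4.71-fold (adjusted p = 3.01e-05). Igfbp3, an IGF-binding protein, took the order of Axl, with signals of 1570.7, 2336.7 and 254.7 in END2, 23.7, 26.8 and 25.1 in PYS2 and 20.7, 53.7 and 25 in XEN cells. END2 replicate 3 was well below the other END2 arrays. Igfbp3 in END2 cells exceeded PYS2 cells at least 20.3-fold (adjusted p = 7.07e-06) and XEN cells at least 21-fold (adjusted p = 8.92e-06). Rbms3, which encodes an RNA-binding protein, was likewise detected on END2 arrays alone, where it exceeded PYS2 cells at least 5.88-fold (adjusted p = 1.22e-06) and XEN cells at least 6.07-fold (adjusted p = 1.43e-06). The ligand gene Tgfb2 was higher in END2 than in XEN by 2.14 (adjusted p = 2.21e-06), where only 1 of 3 arrays detected it.

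Further targets ran lower in END2 than in XEN cells or differed between PYS2 and XEN cells. Crim1, a transmembrane protein that binds BMPs, was lower in END2 than in XEN by -1.84 (adjusted p = 9.24e-05, limma) and lower in PYS2 than in XEN by -1.21 (adjusted p = 0.00313), as Ccn2 was. Nt5e, the ectonucleotidase CD73, was not detected in END2 cells, which XEN cells exceeded at least 1.9-fold (adjusted p = 3.54e-05). One PYS2 array detected it, so that neither END2 nor PYS2 cells had it present, and END2 minus PYS2 was -0.74 (adjusted p = 0.0065). This call was lost with the authors' normalized values (adjusted p = 0.0654) and without normalization between arrays (adjusted p = 0.289). No XEN array detected the ligand gene Tgfb1, and PYS2 cells exceeded XEN cells at least 2.08-fold (adjusted p = 5.36e-06). Fjx1, a Golgi kinase, was higher in PYS2 than in XEN by 1.36 (adjusted p = 0.0071) and Gadd45a, a stress response gene, by 0.99 (adjusted p = 0.00105). The Gadd45a call was lost without normalization between arrays (adjusted p = 0.108). END2 cells too were higher than XEN cells, in Gadd45a by 1.61 (adjusted p = 1.32e-05) and in Tgfb1 at least 2.16-fold (adjusted p = 1.77e-06). The survivin gene Birc5 differed by -0.53 between END2 and XEN (adjusted p = 0.0279), a call that was lost without END2 replicate 1 (adjusted p = 0.0506), END2 replicate 2 (adjusted p = 0.119), XEN replicate 1 (adjusted p = 0.0974) or XEN replicate 3 (adjusted p = 0.0555).

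**Figure D4:**
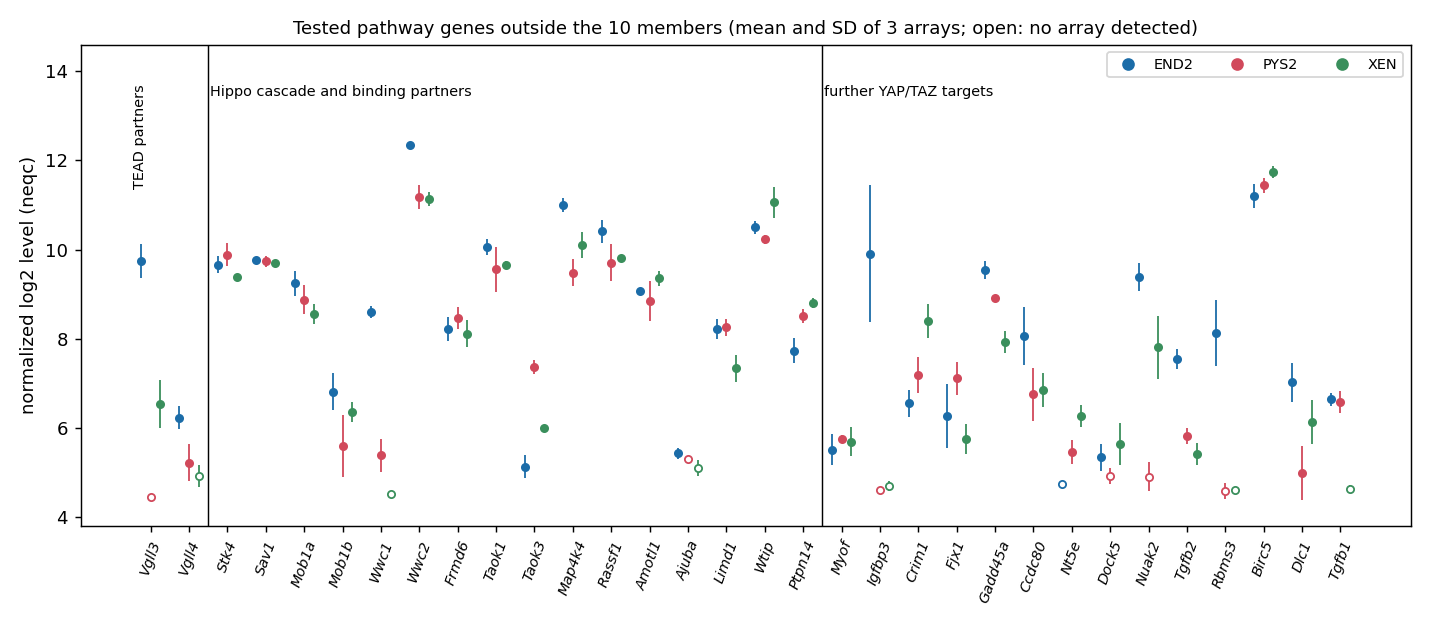
Normalized log2 level (vertical axis) of the tested pathway genes outside the 10, by the brightest probe of each, as the mean of 3 arrays with a bar of 1 SD in END2, PYS2 and XEN cells from left to right, with open points where no array detected the probe. Vgll3, Wwc1, Igfbp3, Nuak2 and Rbms3 stand highest in END2 cells, Taok3 stands highest in PYS2 cells and Crim1 in XEN cells.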

How the data were processed

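Total RNA of END2, PYS2 and XEN cells was hybridised to 9 Illumina MouseWG-6 bead arrays, 3 per line, and grouped by sample title. The authors' scanner table, exported with BeadStudio, holds the fluorescence intensity of each probe on a linear scale, not normalized between arrays, with any background subtraction not stated. A detection score is deposited beside each signal as a fraction from 0 to 1, and its distance from 1 served as detection p-value. The authors' second table holds log2 values normalized with lumi, used as an alternative, with column medians of 7.034 to 7.036 and the ranks of each array's own scanner signal. Another 24 columns beside these signals, of 3 further array sets, carry no sample of this series and were not used.

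Signals were corrected and quantile normalized with neqc (offset 16) and compared in 1 limma 3.58.1 model over the 9 arrays in R 4.3.3, which was tested on simulated data. Platform annotation named 34885 probes with 1 gene symbol, 18 with several and 10378 with none. Arrays have no sequencing depth, and their number limits the precision. The median standard error over beads was 4.21% of the signal for detected probes of the 10 genes. The 10 genes and the pathway lists were chosen with earlier results of these data known. Named from the lists were up to 3 genes on each side of each comparison that passed with arrays of the lines not overlapping, taken by size of the difference, and 1 result among these is not reported here. Alternatives changed the values, background correction, normalization, offset, filters, block, weights, variance model and samples. The slide of each array is unknown, so that no slide block was fitted.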

Additional observations from a re-analysis of the deposited data

How the results depend on the processing

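Of the 54 differences of the tested probes, 27 kept their sign and side of the threshold under all alternatives. The call changed under at least 1 alternative for 23, and 6 that had not passed turned sign under at least 1. The number of called probes among 18 was 13 in END2 against PYS2, 10 in END2 against XEN and 14 in PYS2 against XEN. It moved by over 1.5 times only with array weights, to 16 in END2 against XEN. Leaving out single arrays gave 11 to 14, 7 to 11 and 13 to 14 calls in the 3 comparisons. The authors' normalized values kept 36 of the 37 calls but changed the size of 18 by over 1.5 times, among them Amotl2 in END2 against PYS2, which was 1.32 in place of 2.80. Without normalization between arrays 28 of 37 calls were kept, the median over all probes moved to 0.18 in END2 against PYS2 and 0.14 in END2 against XEN, and 62.9% and 60.9% of all calls were higher in END2, compared with 48.8% and 49.6% after quantile normalization. With replicate number as a block the counts were 13, 11 and 14. Same-numbered arrays of different lines deviated from their line's mean with correlations of -0.276 to 0.31, over 0.1 in 4 of 9 pairs, so the numbers were not taken to pair the samples. All 37 calls were kept under the block, and Tead4 probe 1 in END2 against XEN was gained (adjusted p = 0.0291). Dim probes near the detection limit, as for Wwtr1 probe 3 and Axl in PYS2 cells, give bounds and not levels there.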
